A study of Mus musculus with 6 samples.

Results

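The miR-30 guide strands are the mature miRNAs cut from the 5p arms of the miR-30 hairpins, and 5 of them were examined here: mmu-miR-30a-5p, mmu-miR-30b-5p, mmu-miR-30c-5p, mmu-miR-30d-5p and mmu-miR-30e-5p. They were picked by name from a table of 1081 mature miRNA entries, and all 5 were among the 461 entries abundant enough to test. A guide strand is the arm of the hairpin duplex that is preferentially loaded into Argonaute, where the seed, bases 2 to 8 from its 5′ end, pairs with target mRNAs and lowers their output. Dicer, the RNase III enzyme encoded by Dicer1, releases the duplex by cutting off the loop of the precursor. The miR-30 family is abundant in kidney tubule epithelium and in podocytes, whose integrity it is known to support.

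Small RNA was sequenced from total RNA of the kidney inner medulla, the zone rich in collecting ducts, of 1-month-old mice. The groups were 3 controls and 3 mice labelled DicerAQP2Cre+, which the series describes as deficient for Dicer1 where aquaporin-2, a water channel that principal cells of the collecting duct insert into their apical membrane, is expressed. The labels give no strain, sex or further alleles, and do not say which alleles the controls carry. By that description the deletion is aimed at aquaporin-2 cells, and where Dicer1 was lost was not measured here. The RNA came from the whole inner medulla, so cells that keep Dicer1 contributed to every library. In such bulk RNA, fewer cells of a type and less of a miRNA per cell cannot be told apart. The DicerAQP2Cre+ columns carry the heading CK0 followed by the replicate number, read here as conditional knockout, so each direction below rests on that reading.

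Values are normalized reads, that is, read counts divided by 1 size factor per library. Libraries held 2934851 to 7614853 reads assigned to miRNAs, summed over all entries. In a principal component analysis of the tested entries, the second component (23.1% of the variance) set DicerAQP2Cre+ replicate 3, with a score of -12.5, away from the other 5 libraries, so each member is also given without it. Over the 6 libraries, mmu-miR-30e-5p in DicerAQP2Cre+ replicate 2 had the fewest recovered reads of any member, 1346, or 0.0459% of that library with a 95% exact binomial interval of 0.0435% to 0.0484%.

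The mature sequences of 3 of the 5 members are printed because the shared seed defines the family and the remaining bases decide how well reads of the members can be told apart. They are from RefSeq (GRCm38.p6), written 5′ to 3′ with the seed in capitals.

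mmu-miR-30a-5p: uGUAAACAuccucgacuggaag

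mmu-miR-30c-5p: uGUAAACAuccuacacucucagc

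mmu-miR-30e-5p: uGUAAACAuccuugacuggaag

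The seed was GUAAACA in all 3, and their first 12 bases were identical. Counted from the 5′ end, mmu-miR-30e-5p differed from mmu-miR-30a-5p at 1 of 22 positions (C13U). Against mmu-miR-30a-5p, mmu-miR-30c-5p differed at 5 of 22 positions (C13A, G14C, G18C, G19U and A20C) and had a length of 23 rather than 22. The mismatch tolerance of the authors' alignment is not given in the sources used here. Reads of members that differ by few bases could therefore have been exchanged, or counted under more than 1 entry. The entries mmu-miR-28a-5p and mmu-miR-28c, for example, had identical values in all 6 libraries (333 normalized reads in control replicate 1). The separate values of the members are thus uncertain, and so is their sum if reads were counted more than once. The sequences of mmu-miR-30b-5p and mmu-miR-30d-5p were not compared here. Among the other RefSeq sequences compared, mmu-miR-384-5p shared this seed, and the table held no entry of that name.

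A pair of hairpins gives rise to mmu-miR-30c-5p. They are shown, with the guide in capitals, because the same mature sequence sits in both and its reads cannot be assigned to either gene.

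Mir30c-1: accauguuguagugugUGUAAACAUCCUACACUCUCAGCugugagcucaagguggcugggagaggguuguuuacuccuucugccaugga

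Mir30c-2: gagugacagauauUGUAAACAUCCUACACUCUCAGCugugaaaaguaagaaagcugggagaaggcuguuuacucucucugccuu

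The guide occupied bases 17 to 39 of the 89 bases of Mir30c-1 and bases 14 to 36 of the 84 bases of Mir30c-2. The submitters' processing notes name mm9, a build other than that of these sequences, so no coordinates are given. In the GRCm38 annotation (GENCODE M21) the 6 Mir30 genes form 3 pairs within 50 kb of each other: Mir30a with Mir30c-2, Mir30b with Mir30d, and Mir30c-1 with Mir30e. Both Mir30e and Mir30c-1 are intronic to Nfyc, which encodes a subunit of the transcription factor NF-Y. Mir30c-2 lies in an exon of the non-coding gene Gm27028, and Mir30b in an exon of Gm26621.

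All 5 guide strands had lower means in DicerAQP2Cre+ libraries, at 39.2% to 60.8% of the control mean. In limma, a linear model fitted across all entries on log2(value + 1) with Benjamini-Hochberg adjustment and a threshold of 0.05, 4 of the 5 fell. Over all 461 entries 4.99% were called lower. The median log2 fold change of the 5 was -1.15, beside -0.01 for all entries tested. The same 4 had no overlap between genotypes, with every DicerAQP2Cre+ library below every control, which was the case for 18.0% of all entries tested.

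mmu-miR-30d-5p was the most abundant member, ranking 5th of all entries in controls and 7th in DicerAQP2Cre+ libraries. It stood at 188464, 200307 and 227539 normalized reads in controls, in the order of their replicate numbers as throughout, and at 70127, 77222 and 134758 in DicerAQP2Cre+ libraries. The genotypes did not overlap, and DicerAQP2Cre+ replicate 3 lay between the controls and the rest of its own group. The mean went from 205437 ± 20036 (SD, n = 3) to 94036 ± 35444, a 2.18-fold decrease. Its log2 fold change was -1.19 ± 0.25 (SE, 95% interval -1.73 to -0.64, limma adjusted p = 0.0162). Without DicerAQP2Cre+ replicate 3 the log2 fold change was -1.48 (limma adjusted p = 6.09e-05). It passed in 11 of 16 alternative settings, with the highest adjusted p, 0.0759 in limma, without DicerAQP2Cre+ replicate 2.

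mmu-miR-30a-5p, the next in abundance, was the member that did not pass. Controls held 95994, 67486 and 71055 normalized reads and DicerAQP2Cre+ libraries 29777, 40272 and 72443. Here the genotypes overlapped, since DicerAQP2Cre+ replicate 3 lay above control replicates 2 and 3, and control replicate 1 stood well above the other controls. The means were 78178 ± 15531 and 47497 ± 22232 (SD, n = 3 each), 60.8% of control. The log2 fold change was -0.80 ± 0.30 with a 95% interval of -1.47 to -0.14 (limma adjusted p = 0.118, unadjusted p = 0.0228). Without DicerAQP2Cre+ replicate 3 it was -1.16 and passed (limma adjusted p = 0.00126), and with all libraries set to equal totals it was -1.01 and passed too (limma adjusted p = 0.0419). With equal totals of the reads other than mmu-miR-181a-5p, the most abundant entry of the table, it was -0.52 and did not pass (limma adjusted p = 0.24). It passed in 2 of 16 alternative settings.

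mmu-miR-30c-5p, the product of 2 genes, had the largest fold change of the 5 and the smallest p of all entries tested. Its values were 14172, 14809 and 15251 normalized reads in the control group and 5925, 5138 and 6262 in DicerAQP2Cre+ libraries. Both groups were tight and far apart, with DicerAQP2Cre+ replicate 3 near the other libraries of its genotype. The mean fell 2.55-fold, from 14744 ± 543 to 5775 ± 577, with a log2 fold change of -1.36 ± 0.18 (95% interval -1.75 to -0.96, limma adjusted p = 0.00669). Without DicerAQP2Cre+ replicate 3 it was -1.42 (limma adjusted p = 5.97e-05). mmu-miR-30c-5p passed in 14 of 16 alternative settings.

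mmu-miR-30b-5p, from the hairpin next to that of miR-30d, stood at 7338, 6632 and 6596 normalized reads in controls and at 3458, 4321 and 4390 in DicerAQP2Cre+ libraries. The groups did not overlap. The mean went from 6855 ± 418 to 4056 ± 519 and the log2 fold change was -0.76 ± 0.19 (95% interval -1.18 to -0.35, limma adjusted p = 0.0269). This was the least stable of the 4 calls, lost in 8 of 16 alternative settings, among them a fit with the replicate number as a block (limma adjusted p = 0.0603). Without DicerAQP2Cre+ replicate 3 the log2 fold change was -0.82 (limma adjusted p = 0.00399).

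mmu-miR-30e-5p, the least abundant member, held 6039, 5649 and 5249 normalized reads in controls and 2623, 2638 and 2389 in DicerAQP2Cre+ libraries. The DicerAQP2Cre+ values varied less than those of any other member (coefficient of variation 5.48%), and replicate 3 was the lowest of the group. The mean went from 5646 ± 395 to 2550 ± 140, a 2.21-fold decrease and a log2 fold change of -1.15 ± 0.18 (95% interval -1.55 to -0.74, limma adjusted p = 0.0126). Without DicerAQP2Cre+ replicate 3 it was -1.10 (limma adjusted p = 0.000543). mmu-miR-30e-5p passed in 14 of 16 alternative settings.

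**Figure D1:**
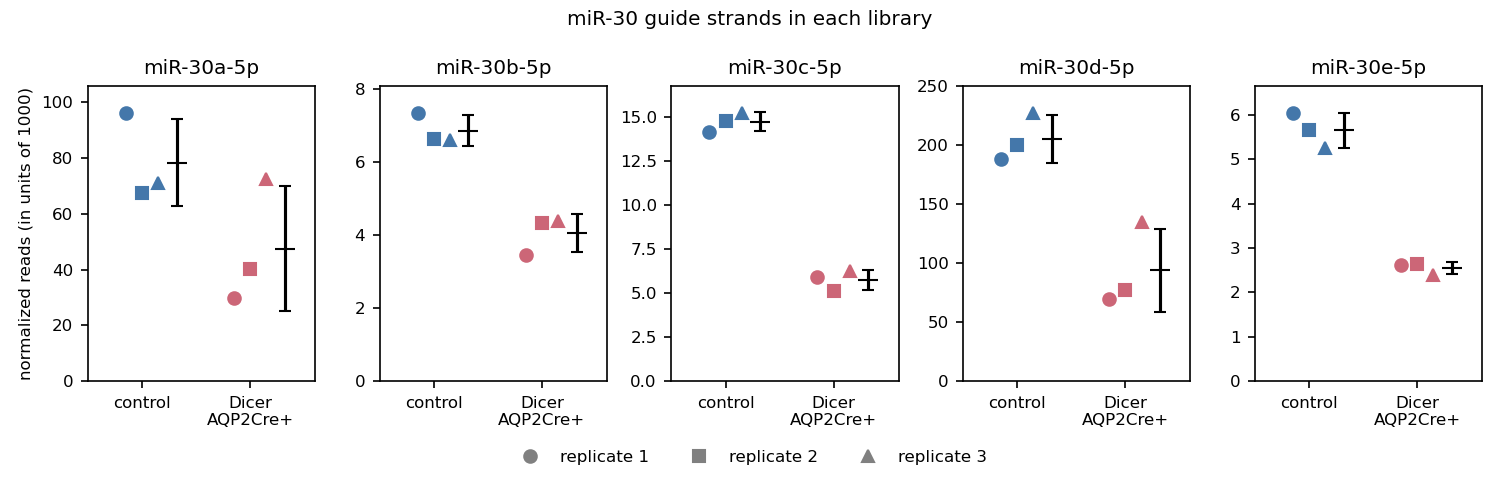
Normalized reads (in units of 1000, each panel with its own axis from 0) of the 5 miR-30 guide strands in the 3 control and 3 DicerAQP2Cre+ libraries; symbols mark the replicate and black bars the mean ± SD. The genotypes separate for all members but miR-30a-5p, in which DicerAQP2Cre+ replicate 3 (72443 reads) reaches the controls.

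With control replicate 2 left out limma called 0 of the 5 members and 0 of 463 entries lower, and with control replicate 3 left out again 0 of 5 and 0 of 459, although all 5 members kept an unadjusted p under 0.05 in both fits and 43 and 47 entries were lower at that level (0.00% of entries called in either). Without control replicate 1, and without DicerAQP2Cre+ replicate 2, 2 of the 5 were called lower (mmu-miR-30c-5p and mmu-miR-30e-5p), beside 2.39% and 2.18% of all entries. Without DicerAQP2Cre+ replicate 1, 3 members and 6.78% of all entries were called lower. Without DicerAQP2Cre+ replicate 3 limma called all 5 members and 13.6% of all entries lower. The log2 fold changes moved less than the calls: over the 6 fits with a library left out they stayed between -1.42 and -1.27 for mmu-miR-30c-5p and between -1.20 and -1.10 for mmu-miR-30e-5p, and ranged from -1.16 to -0.52 for mmu-miR-30a-5p. On recovered whole reads, edgeR's quasi-likelihood test and DESeq2 each called the same 4 members lower, beside 4.99% and 6.07% of all entries. For mmu-miR-30a-5p, adjusted p was 0.158 in edgeR and 0.156 in DESeq2.

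**Figure D2:**
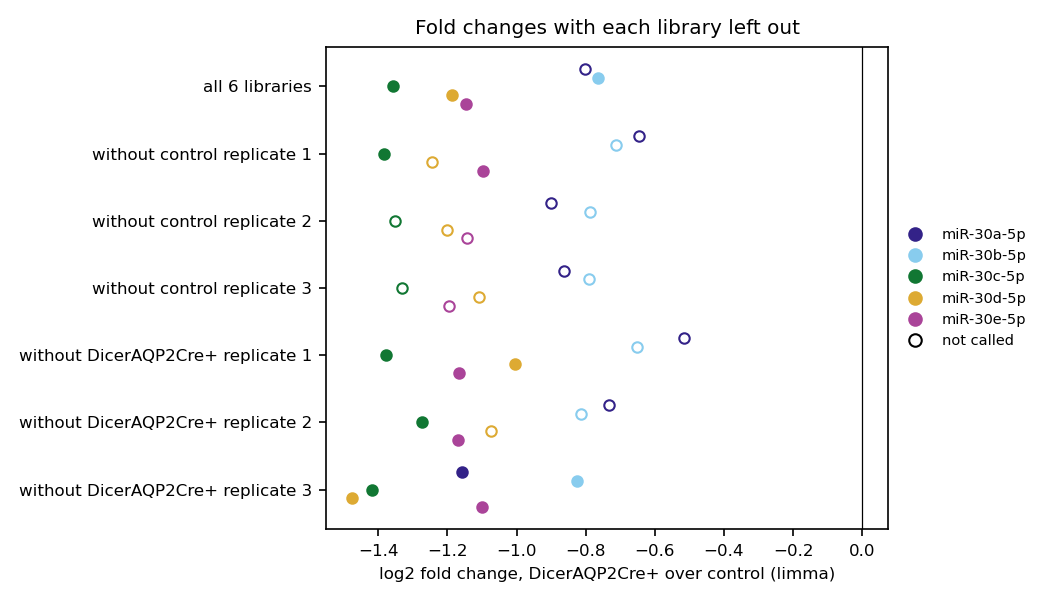
Log2 fold change (limma, DicerAQP2Cre+ over control, x axis) of each guide strand with all 6 libraries and with each library left out in turn; filled points passed an adjusted p under 0.05, open points did not. Every point lies below 0, and 0 of 5 members are filled without control replicate 2 or 3.

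As a share of all miRNA reads, the 5 guide strands together held 5.98%, 6.05% and 6.83% of the control libraries and 1.99%, 2.25% and 3.79% of the DicerAQP2Cre+ libraries. The means were 6.29 ± 0.475% and 2.68 ± 0.971%, a difference of -3.61 percentage points. Their sum went from 310860 ± 15436 to 153914 ± 58117 normalized reads, 2.02-fold lower. Of that difference mmu-miR-30d-5p made up 71.0% and mmu-miR-30a-5p 19.5%. mmu-miR-181a-5p, the most abundant entry, itself went from a mean of 2383544 to 3609529 normalized reads (limma adjusted p = 0.0641). With the reads of mmu-miR-181a-5p set aside, the family's share was 12.1 ± 0.551% in controls and 7.12 ± 1.80% in DicerAQP2Cre+ libraries. The share was thus 1.70-fold lower without that entry and 2.35-fold lower with it. Because shares depend on what else is in the library, the scaling mattered: the median over all entries, -0.01 on the log2 scale, became -0.21 with equal totals and 0.25 with equal totals of the reads other than mmu-miR-181a-5p.

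**Figure D3:**
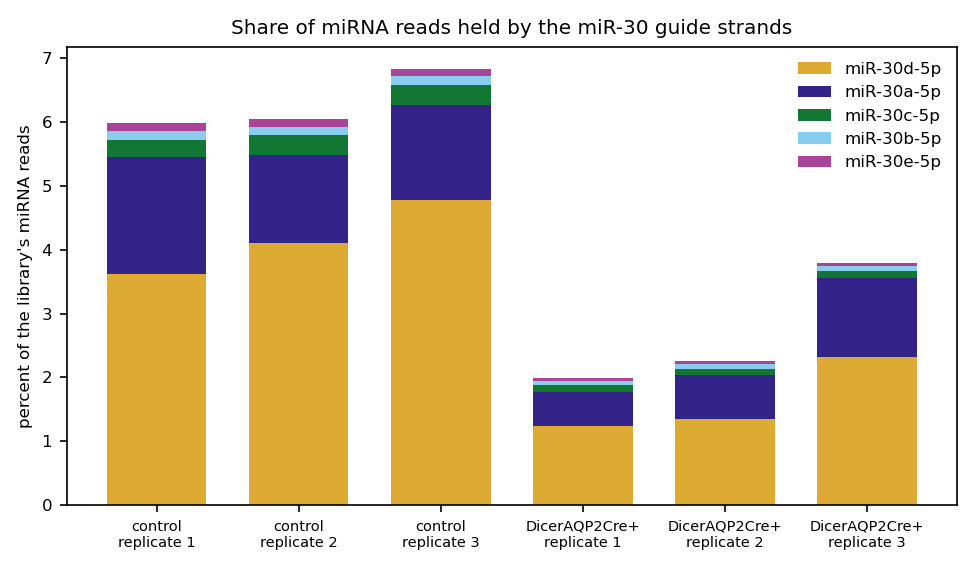
Percent of each library's miRNA reads (y axis, from 0) held by the 5 guide strands, stacked by member. The control bars reach 5.98% to 6.83% and the DicerAQP2Cre+ bars 1.99% to 3.79%, and miR-30d-5p forms the largest part of each.

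The share of each member within the family overlapped between genotypes for all 5. mmu-miR-30d-5p was 66.1 ± 5.0% of family reads in controls and 61.2 ± 1.54% in DicerAQP2Cre+ libraries, and mmu-miR-30a-5p 25.2 ± 4.89% and 30.2 ± 3.23%. mmu-miR-30c-5p made up 4.75 ± 0.247% and 4.03 ± 1.23%, mmu-miR-30b-5p 2.21 ± 0.167% and 2.81 ± 0.714%, and mmu-miR-30e-5p 1.82 ± 0.182% and 1.82 ± 0.656%. Reads per miRNA also depend on how well each sequence is captured in library preparation, so these percentages are of reads, not of molecules.

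To ask whether members changed by unequal amounts, the log2 ratio of each of the 10 pairs was compared between genotypes by exact two-sided permutation tests, in which 3 against 3 libraries cannot give a p below 0.1. In 2 pairs the ratios did not overlap, both with mmu-miR-30b-5p. Its log2 ratio to mmu-miR-30c-5p was -0.95, -1.16 and -1.21 in controls and -0.78, -0.25 and -0.51 in DicerAQP2Cre+ libraries, a difference of 0.59 (exact p = 0.1, 0.4 after adjustment over the 10 pairs). Its log2 ratio to mmu-miR-30e-5p was 0.28, 0.23 and 0.33 against 0.40, 0.71 and 0.88, a difference of 0.38 (exact p = 0.1, adjusted 0.4). The remaining 8 pairs overlapped, with exact p from 0.2 to 1. A difference between members in the size of the change was thus not shown with 3 mice per genotype. For the neighbouring genes of mmu-miR-30b-5p and mmu-miR-30d-5p, that log2 ratio was -4.68, -4.92 and -5.11 in controls and -4.34, -4.16 and -4.94 in DicerAQP2Cre+ libraries.

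The spread between libraries differed from member to member. Measured as log2(value + 1) against the control mean, mmu-miR-30a-5p spanned 1.28 and mmu-miR-30d-5p 0.94 over the 3 DicerAQP2Cre+ libraries, beside 0.51 and 0.27 over the controls. mmu-miR-30b-5p spanned 0.34, mmu-miR-30c-5p 0.28 and mmu-miR-30e-5p 0.14, beside 0.15, 0.11 and 0.20 over the controls. In DicerAQP2Cre+ replicate 3, mmu-miR-30a-5p was 0.09 and mmu-miR-30d-5p 0.60 below the control mean, while mmu-miR-30c-5p and mmu-miR-30e-5p were each 1.24 below it.

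The other arms of the same hairpins, the passenger strands, had lower means for all 6 entries. Of these, 3 fell by limma, beside 4.99% of all entries called lower, and 233 of all 461 had a log2 fold change below 0. For 4 of the 6 every DicerAQP2Cre+ library lay below every control, beside 18.0% of all entries. Per passenger read there were 2.20, 2.58 and 2.68 reads of mmu-miR-30c-5p in controls and 1.68, 1.38 and 1.14 in DicerAQP2Cre+ libraries, counting both miR-30c passenger entries together. This ratio did not overlap between genotypes (log2 difference -0.84, exact p = 0.1, 0.5 after adjustment over 5 guide to passenger ratios), whereas it overlapped for miR-30a, miR-30b, miR-30d and miR-30e. Of the summed miR-30c passenger arms, mmu-miR-30c-2-3p was the larger part, with means of 5515 (control) and 4026 (DicerAQP2Cre+) normalized reads (a log2 fold change of -0.48 ± 0.22, with an adjusted p of 0.186 in limma), and mmu-miR-30c-1-3p went from 439 to 212 (-1.08 ± 0.25, adjusted p = 0.0196).

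The members can be placed among all entries tested. Ranked from the lowest log2 fold change of 461, mmu-miR-30c-5p was 18th, mmu-miR-30d-5p 29th, mmu-miR-30e-5p 32nd, mmu-miR-30a-5p 58th and mmu-miR-30b-5p 62nd. Of the 50 most abundant entries, 4 are members, and 7 were called lower, 3 of them members and 4 not, while 1 was called higher. Over all 461 entries tested, 4.99% were called lower and 16 entries were called higher. The 50 were counted after these values were seen.

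**Figure D4:**
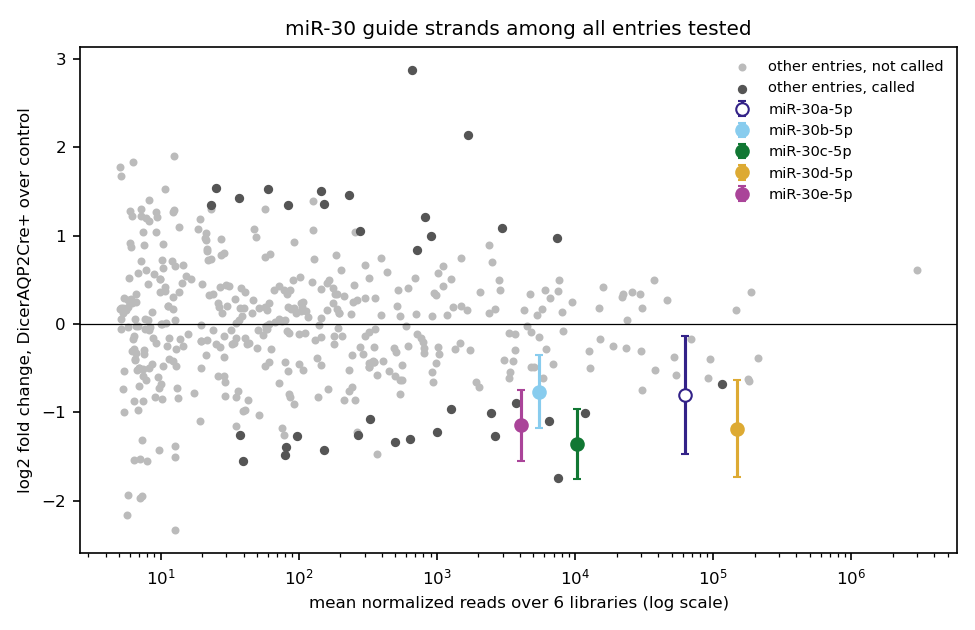
Log2 fold change (DicerAQP2Cre+ over control, y axis) against mean normalized reads over 6 libraries (x axis, log scale) for the 461 entries tested; coloured points are the guide strands with their 95% limma intervals, open where not called. The 5 members lie between -1.36 and -0.76 at the abundant end.

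The entries whose values followed the family most closely were sought among 248 entries outside miR-30 with a mean of at least 50 normalized reads. Likeness was the root mean square difference, over the 6 libraries, between log2(value + 1) minus its control mean and the mean of the 5 members treated alike. The nearest was mmu-miR-29a-3p, of a family known for repressing collagen genes, at 0.09, followed by mmu-miR-429-3p at 0.14, mmu-miR-200b-3p at 0.18, mmu-miR-200a-3p at 0.19 and mmu-miR-31-5p at 0.20. The members themselves lay 0.20 to 0.31 from their own mean, and the median of the 248 was 0.82. With values centred on the control mean, nearness mostly reflects a change of similar size in the DicerAQP2Cre+ libraries. Of the nearest 5, 3 belong to the miR-200 family, of which 8 entries were tested. This family keeps epithelial cells differentiated by repressing Zeb1 and Zeb2. mmu-miR-429-3p, for example, had 1361, 1375 and 1469 normalized reads in the controls and 523, 560 and 728 in DicerAQP2Cre+ libraries. mmu-miR-31-5p is another miRNA of epithelia.

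**Figure D5:**
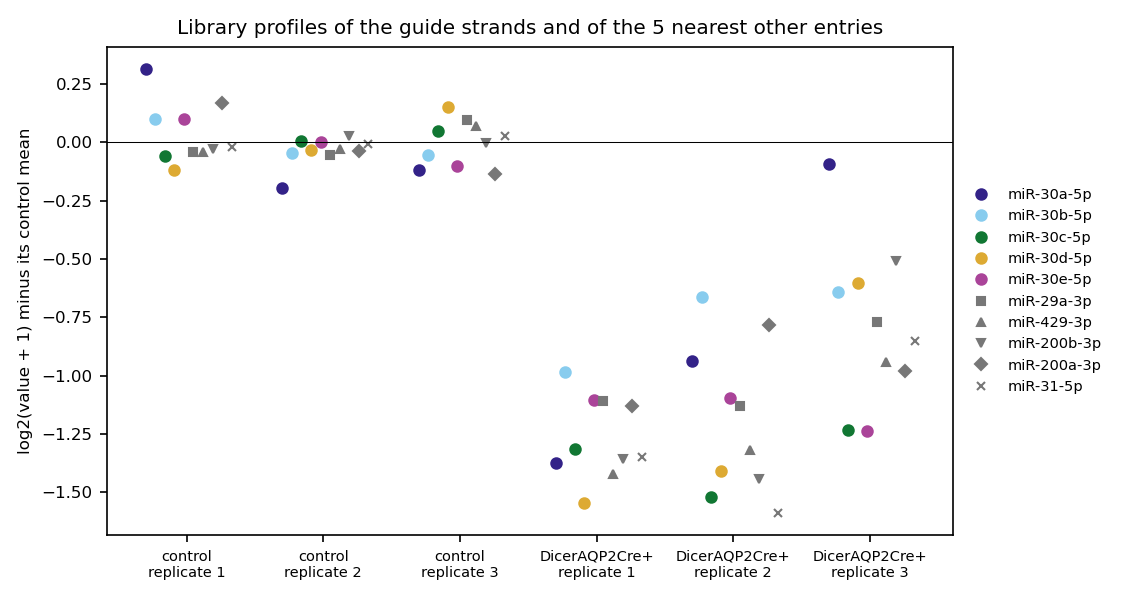
Log2(value + 1) minus the entry's own control mean (y axis) in each of the 6 libraries (x axis) for the 5 guide strands (coloured circles) and the 5 nearest other entries (grey). The 2 sets overlap in DicerAQP2Cre+ libraries, and in replicate 3 miR-30a-5p alone is near 0 (0.09 below its control mean).

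The epithelium markers listed here are all 3p arms of the miR-200 family, miRNAs that are themselves cut by Dicer. Their sum therefore cannot tell fewer epithelial cells from less miRNA per cell. All 5 (mmu-miR-200a-3p, mmu-miR-200b-3p, mmu-miR-200c-3p, mmu-miR-141-3p and mmu-miR-429-3p) fell by limma, beside 4.99% of all entries called lower. Their sum went from 16704 to 17708 normalized reads in controls to 7133 to 10776 in DicerAQP2Cre+ libraries, with the highest of these in replicate 3. Per normalized read of this sum there were 17.6, 16.7 and 19.5 reads of the 5 guide strands in controls and 14.0, 18.2 and 20.4 in DicerAQP2Cre+ libraries. The family total thus overlapped between genotypes on this scale. By member the same held except for mmu-miR-30c-5p, with 0.80, 0.839 and 0.913 per miR-200 family read of this sum in controls and 0.743, 0.72 and 0.581 in DicerAQP2Cre+ libraries. Not all miRNAs known from epithelia were lower: mmu-miR-205-5p went from a mean of 13337 to 18680 normalized reads (limma adjusted p = 0.318) and mmu-miR-204-5p from 345.6 to 524.2 (adjusted p = 0.13), and mmu-miR-375-3p rose from 518.3 to 923.2 (adjusted p = 0.034). The part of epithelial cell numbers in the lower miR-30 values was not tested, and a ratio to these markers cannot decide it.

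Other cell types were represented as follows. Of the 5 stromal markers, 2 rose, mmu-miR-214-3p and mmu-miR-145a-5p, beside 16 of all 461 entries called higher. The list's sum was 23291 to 24539 normalized reads in controls and 27621 to 39941 in DicerAQP2Cre+ libraries. The sum of the 3 cortical tubule markers was 1277 to 1340 and 627 to 1131, with mmu-miR-194-5p called lower and mmu-miR-215-5p at 0 in 5 libraries. Neither of the 2 endothelial markers passed (sums of 961 to 1229 and 830 to 1245). Leukocyte markers summed to 12167 to 35214 and 15922 to 38104, nearly all of it mmu-miR-150-5p, with mmu-miR-142a-3p at 0 in all controls and 2 DicerAQP2Cre+ libraries and none called. Like mmu-miR-30a-5p, mmu-miR-150-5p was highest within its genotype in control replicate 1 (35203) and DicerAQP2Cre+ replicate 3 (38097). The same held for mmu-miR-10a-5p (247761 and 244512) and mmu-miR-10b-5p (73415 and 85289), which are on no marker list here. It did not hold in both genotypes for the other tested leukocyte markers, which had few reads (2 to 22 for mmu-miR-142a-5p, 3 to 16 for mmu-miR-223-3p). mmu-miR-142a-5p was highest in control replicate 3 (7.74) and DicerAQP2Cre+ replicate 1 (16.3). mmu-miR-223-3p was highest in control replicate 1 (5.38) and DicerAQP2Cre+ replicate 2 (19.6). Erythroid markers summed to 84624 to 147220 and 66039 to 98714, nearly all of it the joint entry of mmu-miR-486a-5p and mmu-miR-486b-5p, while mmu-miR-451a, a defining miRNA of red blood cells, was between 11.8 and 31.0. Striated muscle markers stayed below 50 normalized reads in sum, and none of either list was called. The part of these cell types in the miR-30 values was not tested.

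Of the miR-30 guide strands, limma called 4 of 5 lower, with a median log2 fold change of -1.15. Beside them, it called 5 of 8 tested miR-200 entries lower (median -0.93) and 2 of 6 miR-29 entries (median -0.93). The miR-200 and miR-29 lists hold both arms of their hairpins, unlike the miR-30 list. Of the 5 miR-200 3p arms alone, 5 were called lower (median -1.10), and of the 6 miR-30 passenger arms 3 were (median -0.85). Over all entries tested 4.99% were called lower. Of 10 tested let-7 and miR-98 guide strands, an abundant set found in most cell types, 0 passed in either direction 8 had a log2 fold change above 0 and 2 below (median 0.21). mmu-let-7c-5p, for example, had 151483, 180549 and 159580 normalized reads in the controls and 196190, 225406 and 212269 in DicerAQP2Cre+ libraries (log2 fold change 0.37 ± 0.17, limma adjusted p = 0.192). Under the scaling by equal totals the median over all entries was itself shifted by -0.21, so directions of small changes such as these depend on the scaling. Differences between these families were not tested.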

How the data were processed

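Small RNA libraries of 3 control and 3 DicerAQP2Cre+ mice were compared. The deposited signal values are, per the file headers, normalized miRNA counts, and are read counts divided by 1 size factor per library: 100% of values were whole multiples of the smallest value above 0 within 0.01 read. FastQC 0.11.3, DESeq2 and mm9 are named in the submitters' processing notes, with the aligner and counting tool not given in the sources used here. Limma 3.58.1 (R 4.3.3) was fitted to log2(value + 1) of all genes in the table with a mean of at least 5 (461 of 1081 entries), with a mean-variance trend, genotype as the only term, two-sided tests and Benjamini-Hochberg adjustment. Fold changes on this scale understate the change of low entries. The same code was tested on simulated data. edgeR 4.0.16 and DESeq2 1.42.0 were run on the recovered reads.

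Replicate numbers are shared between genotypes, but the labels describe separate mice. The 5 members and the lists were chosen with earlier results of these data known. Named entries were the members, miR-30 passenger arms, entries with the same seed, the 5 nearest profiles and cell type markers. mmu-let-7c-5p, mmu-miR-10a-5p, mmu-miR-10b-5p, mmu-miR-28a-5p, mmu-miR-28c, mmu-miR-181a-5p, mmu-miR-205-5p, mmu-miR-204-5p and mmu-miR-375-3p lie outside this rule and were chosen after their values were seen. Entries whose names join several miRNAs were counted under each name in the lists. RefSeq mature sequences matched 916 of the 1081 entries by name. Intervals of shares cover counting error only. Alternatives were other pseudocounts, filters, scalings and tools, a replicate block, and each library left out.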

Additional observations from a re-analysis of the deposited data

How the results depend on the processing

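All 5 guide strands kept a log2 fold change below 0 in each of 16 alternative settings. Without a trend limma called 2 members (11 entries lower, 7 higher), with mmu-miR-30b-5p at -0.76 and mmu-miR-30d-5p at -1.19 no longer past the threshold. With equal totals 48 entries were lower and mmu-miR-30a-5p passed at -1.01, and higher entries were 22.6% of calls rather than 41.0%. With equal totals of reads other than mmu-miR-181a-5p, 14 entries were lower and 35 higher (71.4% of calls), and mmu-miR-30a-5p at -0.52 and mmu-miR-30b-5p at -0.48 did not pass. As a share of the reads other than mmu-miR-181a-5p, the family differed by -4.99 percentage points (1.70-fold), beside -3.61 (2.35-fold) for all reads. Relative to the median of all entries, mmu-miR-30a-5p was at -0.77 in that scaling and -0.79 in the main fit. For mmu-miR-30b-5p these were -0.74 and -0.75. Why mmu-miR-181a-5p reads differed between genotypes was not tested. Same-numbered libraries of both genotypes did not deviate together (correlations of -0.06, 0.01 and 0.06). So few libraries cannot decide whether the numbers pair the samples, and the labels give no pairing. With a replicate block mmu-miR-30b-5p missed the threshold at -0.76, and 3 members were called, beside 18 of all 461 entries lower and 14 higher.

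Leaving out each library, which also leaves fewer samples, gave 0 to 5 members called, 0 to 62 entries lower and 0 to 43 higher. Log2 fold changes then ranged from -1.16 to -0.52 for mmu-miR-30a-5p, -0.82 to -0.65 for mmu-miR-30b-5p, -1.42 to -1.27 for mmu-miR-30c-5p, -1.48 to -1.01 for mmu-miR-30d-5p and -1.20 to -1.10 for mmu-miR-30e-5p. Genotype differences of log2 ratios that changed sign were those of mmu-miR-30a-5p to mmu-miR-30b-5p (-0.33 to 0.14) and to mmu-miR-30e-5p (-0.058 to 0.65), of mmu-miR-30c-5p to mmu-miR-30d-5p (-0.37 to 0.060), of mmu-miR-30d-5p to mmu-miR-30e-5p (-0.38 to 0.16), and of guide to passenger arm for miR-30a (-0.41 to 0.18) and miR-30d (-0.078 to 0.54). None of these could be called at 0.05: no exact p was below 0.2 with a library left out, and 0.1 is the least possible with all 6. The guide to passenger settings were chosen after the data were seen. The fewest reads of a member were 1346, for mmu-miR-30e-5p, with an exact binomial interval of 0.0435% to 0.0484% of that library, and its DicerAQP2Cre+ values had a coefficient of variation of 5.48%.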
